A study of Capra hircus with 6 samples.

Results

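The genes studied here mark the oligodendrocyte lineage in the hypothalamus, from the precursor cell to the cell that begins to make myelin. There were 10 genes, chosen by name and not by a measured value, though with earlier results of these data known. PDGFRA and CSPG4 stand for the precursors, and OLIG1, OLIG2, SOX10 and NKX2-2 for the transcription factors of the lineage. GPR17, BCAS1, MYRF and ENPP6 stand for differentiation. The deposited mRNA table held 20225 genes. In it 8 of the 10 were matched by gene identifier, and OLIG1 and OLIG2 were not analysed here because no identifier of the table matched theirs. The level of a gene is the sum of the FPKM of all its transcripts, fragments scaled by transcript length and by the mapped fragments of a library, so that levels of different genes can be compared per length. Values of single goats are listed in the order of replicates 1, 2 and 3.

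Hypothalamus of female Anhuai goats was collected at 2 stages, with 3 pubertal goats aged 4.5 to 5 months in the late follicular phase and 3 prepubertal goats aged 2.5 to 3 months. Puberty had been judged from estrus detection by male goats and from the vulva, and all goats were housed alike. All were anesthetized with pentobarbital sodium and killed by exsanguination, and the paper describes no other treatment. Each goat gave 1 ribosomal RNA-depleted, strand-specific library. Stage cannot be told apart from age, from the phase of the cycle or from body weight, which was higher on average in the pubertal goats. The hypothalamus was sequenced as bulk tissue, so that fewer cells of a type and less RNA per cell cannot be told apart either.

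Oligodendrocyte precursors divide in the developing and adult brain and carry the receptor for platelet-derived growth factor. On commitment they lose this receptor and the NG2 proteoglycan, pass through a short premyelinating state, and then switch on the genes of the myelin sheath. SOX10 is needed along the whole lineage, while the onset of MYRF marks the switch to myelin gene expression. Outside the lineage, NKX2-2 also patterns the developing hypothalamus, PDGFRA is carried by fibroblasts of the leptomeninges, and CSPG4 by pericytes.

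All 8 matched genes were above 0 FPKM in all 6 libraries, precursor and differentiation genes alike. Their mean levels over the 6 libraries ran from 113 ± 27.3 FPKM (SD, n = 6) for BCAS1 to 1.56 ± 0.425 FPKM (SD, n = 6) for CSPG4. BCAS1 lay above 94.9% of the 16397 genes tested and PDGFRA above 88.5%, while CSPG4 lay above 18.2%. In descending order the genes were BCAS1, PDGFRA, GPR17, ENPP6, SOX10, NKX2-2, MYRF and CSPG4. BCAS1 exceeded PDGFRA, PDGFRA exceeded GPR17, ENPP6 exceeded SOX10 and SOX10 exceeded NKX2-2 in 6 of 6 libraries. GPR17 exceeded ENPP6 in only 4 of 6 libraries, and their means of 12.05 ± 3.33 and 11.0 ± 2.82 FPKM (SD, n = 6 each) did not differ beyond their spread. NKX2-2 exceeded MYRF, and MYRF exceeded CSPG4, in 5 of 6 libraries.

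Pubertal and prepubertal libraries were compared to find out whether any step of the lineage differed between the stages. For none of the 8 genes was a difference detected. The ranges of the stages overlapped for all 8, and limma on log2(FPKM + 1) gave Benjamini-Hochberg adjusted p-values between 0.962 and 0.999. The count was 0 of 8 at an adjusted and 0 of 8 at an unadjusted p-value below 0.05. Among all 16397 genes tested, 0% passed the adjusted threshold and 5.16% the unadjusted one (3.51% higher in pubertal goats), and for 9.75% the stages did not overlap (5.91% higher and 3.84% lower in pubertal goats). The median log2 difference of the 8 genes was -0.018, beside -0.00065 over all genes tested, and 3 of the 8 were above 0, beside 49.8% of all genes tested. The two-sided exact permutation test gave p-values between 0.3 and 0.9 for the 8 genes, and 0.1 is the smallest it allows with 3 goats a stage. Each goat is a separate animal, so the spread is between goats.

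**Figure D1:**
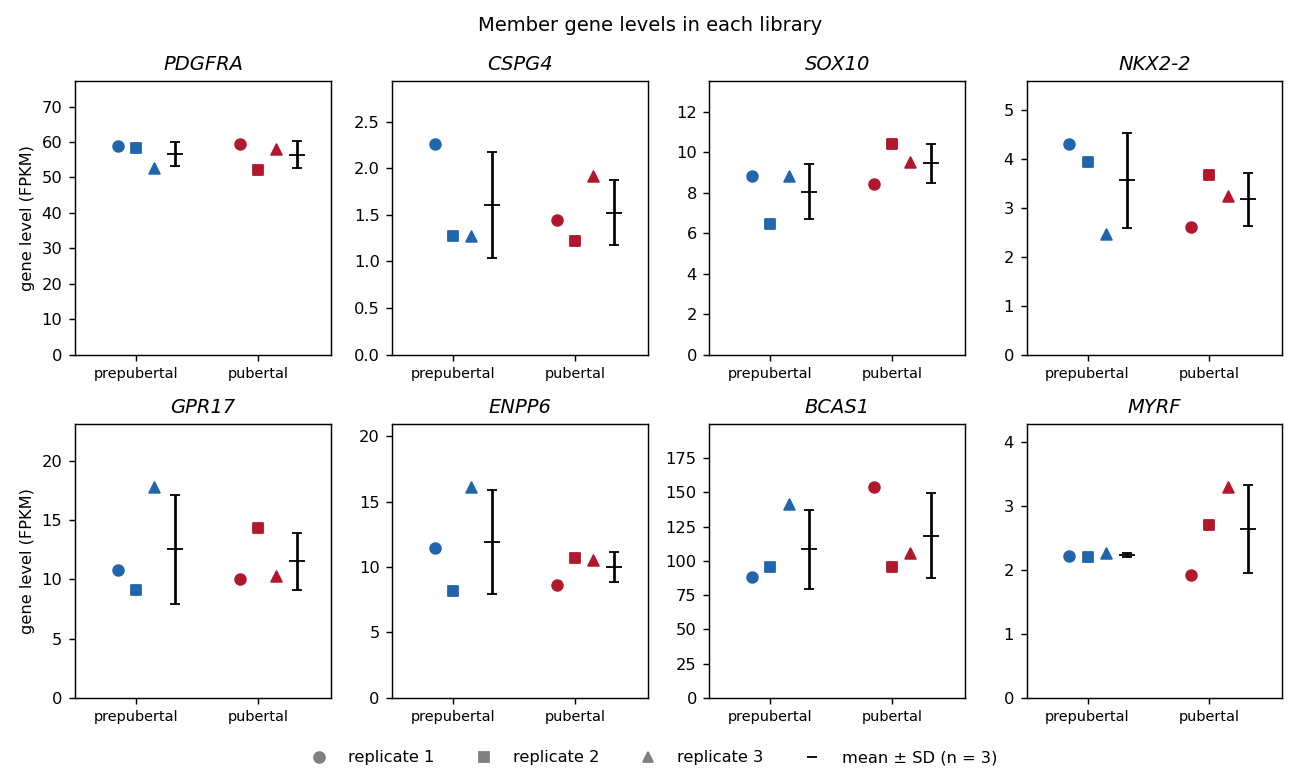
Level of each of the 8 matched genes in FPKM (vertical axis, starting at 0, a separate scale for each gene) in the prepubertal (blue) and pubertal (red) libraries. Symbols stand for the replicate number, and bars give the mean and SD of 3 libraries. The stages overlap in every panel, and PDGFRA stays between 52.1 and 59.4 FPKM.

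The precursor genes are described first. PDGFRA, the alpha receptor for platelet-derived growth factor, was at 59.4, 52.1 and 57.9 FPKM in the pubertal goats, against 58.9, 58.2 and 52.7 FPKM in the prepubertal goats. The highest and the lowest value were both pubertal. The stage means were 56.4 ± 3.87 and 56.6 ± 3.38 FPKM (SD, n = 3 each), a log2 difference of -0.0045 (95% interval -0.21 to 0.20, adjusted p = 0.999 from limma). On the FPKM + 1 scale this interval runs from 0.864- to 1.15-fold. Its coefficient of variation over the 6 libraries was 5.75%, below the lower quartile of 8.14% among the 14081 genes with a mean of at least 1 FPKM. PDGFRA was the steadiest of the 8 genes.

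CSPG4, the NG2 proteoglycan on the surface of the precursors, was at 1.44, 1.22 and 1.91 FPKM in the pubertal goats, against 2.26, 1.27 and 1.28 FPKM in the prepubertal goats. Prepubertal replicate 1 and pubertal replicate 3 were high, and the other libraries lay close together. The log2 difference was -0.031 (95% interval -0.44 to 0.38, adjusted p = 0.994 from limma). PDGFRA was between 26.1 and 45.9 times the level of CSPG4 per length, with ratios of 38.1 ± 6.76 in pubertal and 37.8 ± 10.4 in prepubertal libraries (SD, n = 3 each).

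Markers of the other cells that carry these proteins are given beside them. The 8 leptomeningeal fibroblast markers, among them COL1A1, COL3A1 and DCN, summed to between 129 and 309 FPKM in the pubertal and between 59.2 and 98.9 FPKM in the prepubertal libraries. Of these 8 markers, 5 had an unadjusted p-value under 0.05 from limma, all higher in pubertal goats, beside 3.51% of all genes, and 0 an adjusted one. None was at 0. The 7 pericyte and smooth muscle markers summed to between 128 and 327 FPKM in pubertal and between 87.2 and 110 FPKM in prepubertal libraries. Of these 7, 3 passed the unadjusted threshold, all higher in pubertal goats, and 0 the adjusted one. Pubertal replicate 3 had the highest sum of both lists. With the log2 fibroblast sum as a covariate in limma, the log2 difference was -0.022 for PDGFRA and -0.042 for CSPG4, and none of the 8 genes passed the threshold. The fibroblast sums of the stages did not overlap, so in this fit the covariate and the stage are hard to tell apart, and the SE for PDGFRA went from 0.09 to 0.15. The part of these cells in the levels of PDGFRA and CSPG4 was not tested.

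SOX10, the HMG-box factor of the whole lineage, was at 8.45, 10.4 and 9.51 FPKM in the pubertal goats, against 8.85, 6.48 and 8.82 FPKM in the prepubertal goats. Prepubertal replicate 2 was the lowest library, and pubertal replicate 1 lay below 2 of the 3 prepubertal libraries. The means were 9.45 ± 0.979 and 8.05 ± 1.36 FPKM (SD, n = 3 each). Its log2 difference of 0.22 (95% interval -0.11 to 0.54, adjusted p = 0.962 from limma) had the largest size among the 8 genes, and it went to 0.084 without prepubertal replicate 2.

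NKX2-2, a homeobox factor of precursors about to differentiate, was at 2.60, 3.67 and 3.23 FPKM in the pubertal goats, against 4.29, 3.93 and 2.45 FPKM in the prepubertal goats. The 2 highest values and the lowest value were prepubertal. The log2 difference was -0.11 (95% interval -0.54 to 0.31, adjusted p = 0.970 from limma). The 5 matched hypothalamus markers summed to between 24.6 and 31.5 FPKM in the pubertal libraries. In prepubertal replicates 1, 2 and 3 they summed to 34.0, 41.2 and 23.9 FPKM, with the same 2 libraries high and the same library low as for NKX2-2. Their part in the level of NKX2-2 was not tested. Of these markers GHRH, SIM1, OTP and SIX6 were above 0 in all libraries, and AVP was listed at 0 in all, which was not read as absence.

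A list of genes near lncRNAs, held here in part, placed 7 lncRNA loci within 100 kb of NKX2-2. Their positions and strands relative to the gene were not analysed here. The 9 transcripts of these loci were set beside NKX2-2 as the lncRNAs of that list near it, a choice made after the tables were seen. The most abundant was TCONS_01137391 of XLOC_562033, 2486 nt long, with a GC content of 34.6% against a median of 47.7% over the 2943 lncRNAs. Its longest ORF from ATG to stop codon on the forward strand had 49 codons. The first 300 bases of the deposited sequence, printed 5′ to 3′ with no part marked, are shown because this was the transcript whose stages did not overlap.
XLOC_562033: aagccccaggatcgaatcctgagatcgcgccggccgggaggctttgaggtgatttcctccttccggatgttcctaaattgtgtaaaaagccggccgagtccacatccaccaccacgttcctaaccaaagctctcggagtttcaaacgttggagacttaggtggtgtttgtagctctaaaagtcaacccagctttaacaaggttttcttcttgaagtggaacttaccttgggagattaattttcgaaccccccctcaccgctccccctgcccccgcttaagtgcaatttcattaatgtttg

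XLOC_562033 was at 3.40, 2.80 and 2.85 FPKM in the pubertal goats, against 4.55, 5.15 and 3.46 FPKM in the prepubertal goats. All 3 prepubertal values lay above all 3 pubertal values, with a margin from 3.40 to 3.46 FPKM. The means were 3.02 ± 0.332 and 4.39 ± 0.855 FPKM (SD, n = 3 each), which is close to the level of NKX2-2 itself. The log2 difference was -0.41 (95% interval -0.94 to 0.11, adjusted p = 0.943 from limma over 2925 lncRNA transcripts), which did not pass the threshold. Of the lncRNA transcripts tested, 6.67% had stages that did not overlap and 3.79% did so with pubertal goats lower, beside 1 of these 9, which was lower. An unadjusted p-value below 0.05 was found for 3.52% and an adjusted one for 0.0342% of them, beside 0 of these 9.

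The other 8 transcripts had means of at most 1.67 FPKM over the 6 libraries. XLOC_525979 (411 nt) had 0.296 FPKM in pubertal replicate 1 and 0.977 FPKM in pubertal replicate 2. XLOC_525986 (386 nt) had 0.354 and 0.567 FPKM in the same goats. Both loci were listed at 0 in pubertal replicate 3 and in all prepubertal libraries, which was not read as absence. The 3 transcripts of XLOC_526041 shared between 277 and 331 stretches of 25 bases with each other, while transcripts of different loci shared none on either strand.

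The differentiation genes follow. GPR17, a G protein-coupled receptor of committed precursors that is lost again in mature cells, was at 10.04, 14.3 and 10.3 FPKM in the pubertal goats, against 10.8, 9.13 and 17.8 FPKM in the prepubertal goats. Prepubertal replicate 3 was highest and prepubertal replicate 2 lowest. The log2 difference was -0.078 (95% interval -0.62 to 0.46, adjusted p = 0.988 from limma).

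ENPP6, a choline-specific phosphodiesterase of newly forming oligodendrocytes, was at 8.67, 10.7 and 10.6 FPKM in the pubertal goats, against 11.5, 8.20 and 16.1 FPKM in the prepubertal goats. The same prepubertal libraries as for GPR17 were highest and lowest. The log2 difference was -0.19 (95% interval -0.68 to 0.29, adjusted p = 0.962 from limma). It was -0.42 without prepubertal replicate 2, past the unadjusted but not the adjusted threshold (adjusted p = 0.999 from limma), and 0.031 without prepubertal replicate 3. GPR17 was between 0.939 and 1.33 times the level of ENPP6 in the 6 libraries, while GPR17 alone ranged from 9.13 to 17.8 FPKM.

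BCAS1, a protein of the early myelinating and of the mature oligodendrocyte, was at 154, 95.4 and 106 FPKM in the pubertal goats, against 88.5, 95.3 and 141 FPKM in the prepubertal goats. Pubertal replicate 1 and prepubertal replicate 3 were high, and the other 4 libraries lay between 88.5 and 106 FPKM. The log2 difference was 0.13 (95% interval -0.38 to 0.63, adjusted p = 0.975 from limma).

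MYRF, the membrane-bound factor that turns on the myelin genes, was at 1.92, 2.70 and 3.29 FPKM in the pubertal goats, against 2.22, 2.21 and 2.26 FPKM in the prepubertal goats. The prepubertal goats were nearly equal, and the pubertal goats lay on both sides of them. The means were 2.64 ± 0.689 and 2.23 ± 0.0290 FPKM (SD, n = 3 each), with a log2 difference of 0.15 (95% interval -0.20 to 0.51, adjusted p = 0.962 from limma). Without pubertal replicate 1 the log2 difference was 0.30, which passed the unadjusted threshold in limma but not the adjusted one (adjusted p = 0.356).

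**Figure D2:**
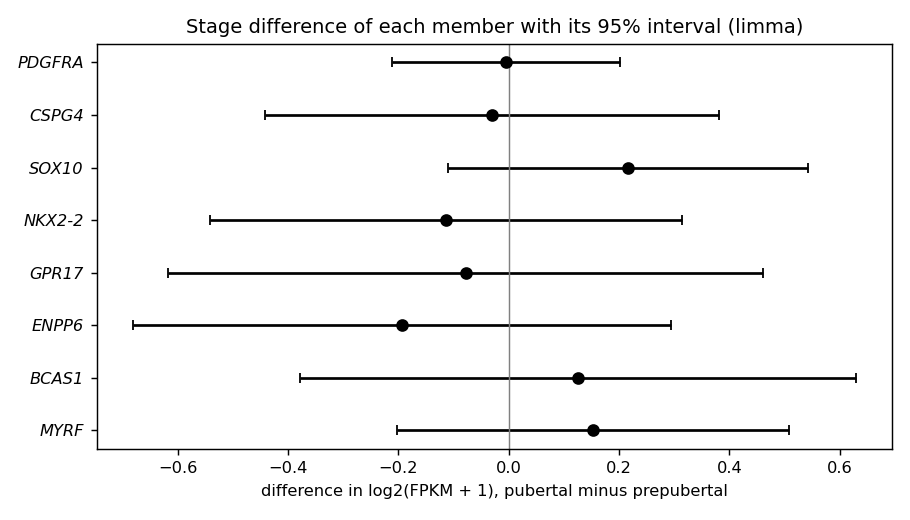
Difference between the stages for each of the 8 genes on the log2(FPKM + 1) scale (horizontal axis, pubertal minus prepubertal), with 95% intervals from limma on 3 libraries a stage. All 8 intervals include 0, the narrowest is that of PDGFRA (-0.21 to 0.20) and the widest are those of GPR17 and BCAS1.

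The intervals give the range of differences left by the 6 libraries. The upper bound was highest for BCAS1, at 1.55-fold of FPKM + 1, and the lower bound was lowest for ENPP6, at 0.623-fold. For SOX10 the interval ran from 0.926- to 1.46-fold and for MYRF from 0.869- to 1.42-fold. The coefficient of variation over the 6 libraries was 14.97% for SOX10 and between 20.1% and 27.6% for the 6 genes other than SOX10 and PDGFRA, beside a median of 11.4% and an upper quartile of 17.1% among the 14081 genes with a mean of at least 1 FPKM.

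The balance between precursor and differentiation genes was described for each library as the mean log2(FPKM + 1) of PDGFRA and CSPG4 minus that of GPR17, BCAS1, MYRF and ENPP6. It was -0.29, -0.55 and -0.25 in the pubertal goats, against -0.038, -0.17 and -0.83 in the prepubertal goats. The stage means of -0.36 ± 0.16 and -0.35 ± 0.42 (SD, n = 3 each) lay together, and prepubertal replicates 1 and 3 were the extremes. PDGFRA was 5.06 ± 1.24 times the level of GPR17 in pubertal and 4.94 ± 1.77 times in prepubertal libraries (SD, n = 3 each).

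The transcripts behind each level were examined, since PDGFRA, BCAS1 and ENPP6 had several. The 8 genes had 21 transcripts in the table. Of those that averaged 0.1 FPKM or more, 0 passed the unadjusted threshold in limma and 0 had stages that did not overlap, beside 4.87% and 9.56% of the 23821 mRNA transcripts tested. PDGFRA came to between 92.0% and 95.7% from XM_005681627.2 (6386 nt). Its other transcript, XM_013964633.1 (6594 nt), was at 4.73, 2.67 and 4.11 FPKM in the pubertal goats, against 2.92, 2.48 and 2.68 FPKM in the prepubertal goats. Pubertal replicate 2 lay among the prepubertal libraries, and the log2 difference was 0.37 (adjusted p = 0.972 from limma). Without pubertal replicate 2 it was 0.55 (adjusted p = 0.740 from limma), past the unadjusted threshold.

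BCAS1 came to between 79.0% and 84.3% from XM_013968983.1 (3043 nt), and each of its other 4 transcripts held at most 9.84% in any library. ENPP6 had 9 transcripts, of which 4 had a mean of at least 0.1 FPKM. XM_013975397.1 (2336 nt) held between 28.9% and 35.9% and XM_005698709.2 (1691 nt) between 22.9% and 32.9% of its level. The others were uneven. XM_013975403.1 (1928 nt) had only 0.0084 FPKM in pubertal replicate 2, against 2.35 to 4.499 FPKM elsewhere. XM_013975398.1 (2039 nt) was at 3.53 FPKM in pubertal replicate 2, at most 0.00029 FPKM in pubertal replicates 1 and 3, and between 0.956 and 1.87 FPKM in the prepubertal libraries. Summed, these 2 transcripts were at 2.995, 3.54 and 4.04 FPKM in the pubertal goats, against 3.59, 3.68 and 6.37 FPKM in the prepubertal goats. The deposited values do not show how reads common to transcripts of ENPP6 were divided among them, and the part of this in the uneven values was not tested.

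**Figure D3:**
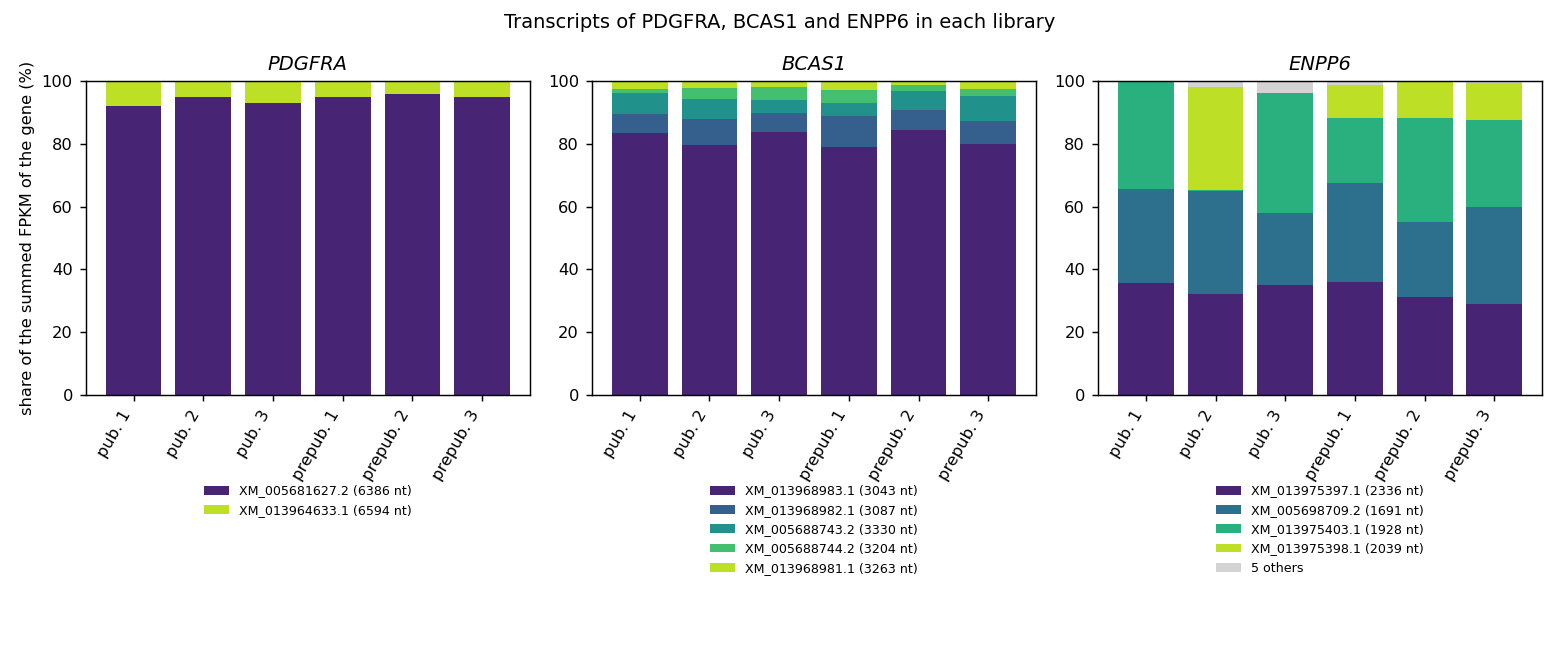
Share of each transcript in the summed FPKM of PDGFRA, BCAS1 and ENPP6 (vertical axis, percent) in the 3 pubertal (pub.) and 3 prepubertal (prepub.) libraries. A single transcript makes up most of PDGFRA and BCAS1, while for ENPP6 in pubertal replicate 2 XM_013975403.1 is near 0 and XM_013975398.1 holds 32.9%.

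The genes of the finished myelin sheath were set beside the differentiation genes. MBP, a main protein of compact myelin, was listed at 3333, 489 and 2415 FPKM in the pubertal goats, against 0, 425 and 874 FPKM in the prepubertal goats. The 0 was not read as absence, and 13 myelin genes without MBP were summed. The sum was 2396, 1738 and 1958 FPKM in the pubertal goats, against 1915, 1637 and 2419 FPKM in the prepubertal goats. Pubertal replicate 1 and prepubertal replicate 3 were the highest, as they were for BCAS1. BCAS1 amounted to between 4.62% and 6.41% of this sum, and its coefficient of variation of 24.1% went to 10.6% for this share. It went from 25.7% to 19.7% for ENPP6 and from 27.6% to 24.5% for GPR17, which was low in pubertal replicate 1, where the myelin genes were high. It went up for MYRF, from 20.1% to 27.7%, for SOX10, from 14.97% to 20.9%, and for PDGFRA, from 5.75% to 16.8%. These are descriptions over the same 6 libraries.

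**Figure D4:**
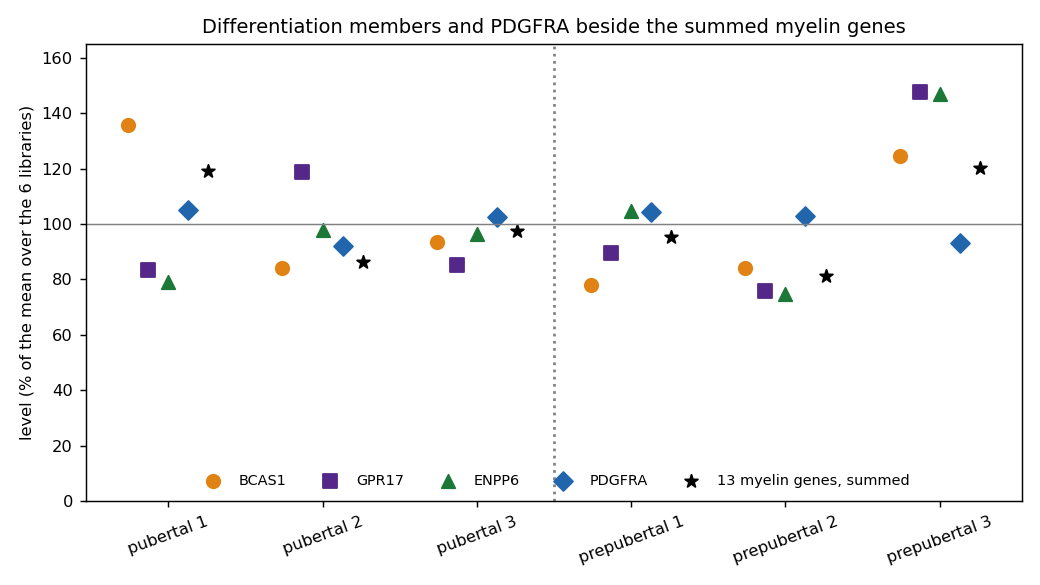
Levels of BCAS1, GPR17, ENPP6, PDGFRA and of 13 summed myelin genes in each library, as a percent of their own mean over the 6 libraries (vertical axis). BCAS1 and the myelin sum are both above 100 in pubertal replicate 1 and prepubertal replicate 3, and below 100 elsewhere. In pubertal replicate 1 BCAS1 is at 136 and the myelin sum at 119. GPR17 and ENPP6 are low in that library and highest in prepubertal replicate 3, and PDGFRA stays near 100.

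Other genes of the lineage were counted by lists. Of 12 other precursor genes 11 were tested, and 0 had an adjusted and 0 an unadjusted p-value under 0.05. The stages did not overlap for 2 of them, both higher in pubertal goats, beside 5.91% of all genes. These were PCDH15, a protocadherin, at 7.21 ± 0.101 against 6.62 ± 0.226 FPKM, and TNR, the matrix protein tenascin R, at 15.7 ± 1.19 against 13.7 ± 0.717 FPKM (SD, n = 3 each). The most abundant of the list were PTPRZ1, a receptor phosphatase, at 103.9 ± 6.61 against 94.5 ± 9.14 FPKM, CSPG5, a proteoglycan, at 55.8 ± 1.17 against 56.7 ± 0.459 FPKM, and LHFPL3 at 25.4 ± 2.096 against 25.9 ± 1.22 FPKM (SD, n = 3 each). The median log2 difference of the list was 0.11, beside -0.00065 over all genes tested. Of the 11 genes, 9 were above 0, beside 49.8% of all genes tested. Their summed level was 277 to 284 FPKM in the pubertal and 251 to 268 FPKM in the prepubertal libraries, so the sums of the stages did not overlap. No test was run on the list as a whole.

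Of 12 genes of committed and newly formed oligodendrocytes 11 were tested, and 1 had an unadjusted p-value under 0.05, beside 5.16% of all genes. It was PLEKHG3, a guanine nucleotide exchange factor, at 7.78, 6.99 and 8.19 FPKM in the pubertal goats, against 6.70, 4.95 and 6.31 FPKM in the prepubertal goats, with an adjusted p of 0.958 from limma. BMP4, a morphogen that holds back differentiation, reached 7.81 FPKM in pubertal replicate 3, while the other 5 goats had 0.429 to 1.20 FPKM. Pubertal replicate 3 was also the library with the most fibroblast and smooth muscle markers.

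Of 14 further transcription factors and chromatin regulators of the lineage 12 were tested, with 0 under an unadjusted p-value of 0.05. SOX8, a relative of SOX10, was at 83.9, 73.3 and 81.6 FPKM in the pubertal goats, against 69.3, 49.5 and 72.8 FPKM in the prepubertal goats. Its stages did not overlap by a narrow margin, and its log2 difference was 0.33 (adjusted p = 0.962 from limma). HDAC1, a histone deacetylase, also had stages that did not overlap, at 28.7 ± 2.16 against 25.3 ± 1.08 FPKM (SD, n = 3 each). These were 2 of 12, both higher in pubertal goats, beside 5.91% of all genes. HDAC2, at 54.5 ± 9.81 against 59.2 ± 4.62 FPKM, and the zinc finger factor ZNF24, at 49.4 ± 5.42 against 50.3 ± 1.88 FPKM (SD, n = 3 each), overlapped.

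Among 12 inhibitors of differentiation, 10 were tested and 0 had an unadjusted p-value under 0.05 or stages that did not overlap. SOX2, a factor of progenitors, was at 56.4 ± 4.71 against 55.5 ± 1.29 FPKM, the receptor GPR37 at 45.9 ± 5.61 against 44.2 ± 8.27 FPKM, and ID2 at 37.6 ± 6.56 against 37.3 ± 1.19 FPKM (SD, n = 3 each). Among 17 growth factors and receptors of precursors, 15 were tested and 0 had an unadjusted p-value under 0.05. PDGFA, the ligand of PDGFRA, was at 13.6 ± 0.724 against 14.7 ± 1.80 FPKM (SD, n = 3 each), a log2 difference of -0.099 (adjusted p = 0.966 from limma). FGF2, a mitogen of precursors, was the only gene of this list whose stages did not overlap, at 32.1, 28.7 and 34.9 FPKM in the pubertal goats, against 35.5, 37.6 and 36.4 FPKM in the prepubertal goats (adjusted p = 0.962 from limma). This was 1 of 15, lower in pubertal goats, beside 3.84% of all genes. THRA, a thyroid hormone receptor, was at 95.1 ± 10.3 against 97.8 ± 5.63 FPKM, FGFR2 at 51.6 ± 3.40 against 46.9 ± 2.53 FPKM and LPAR1 at 41.7 ± 5.23 against 43.0 ± 3.95 FPKM (SD, n = 3 each).

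Of the 14 myelin genes tested, 0 had an unadjusted p-value under 0.05. MOBP was at 508 ± 149 against 550 ± 149 FPKM and CNP at 389 ± 8.83 against 377 ± 70.6 FPKM (SD, n = 3 each). All 6 proliferation genes were tested, with 0 under an unadjusted p-value of 0.05. PCNA, the sliding clamp of DNA replication, was at 23.0 ± 2.19 against 23.0 ± 1.90 FPKM, CCNA2 at 9.05 ± 0.814 against 7.77 ± 1.82 FPKM and CCNB1 at 3.42 ± 0.618 against 3.53 ± 0.456 FPKM (SD, n = 3 each). The medians of these lists lay between 0.010 and 0.14 on the log2 scale.

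Markers of the other cell types were counted by the same lists. Their sums were 1372 to 1734 against 1570 to 1723 FPKM for 9 neuron markers, 6840 to 7184 against 6875 to 7298 FPKM for 8 astrocyte markers, 321 to 402 against 312 to 362 FPKM for 8 microglia markers, and 93.8 to 115 against 83.1 to 92.7 FPKM for the endothelial markers, in pubertal against prepubertal libraries. Those of neurons, astrocytes and microglia overlapped between the stages. The unadjusted threshold was passed by 0 neuron, 1 astrocyte, 2 microglia, 1 endothelial, 3 pericyte and smooth muscle, and 5 fibroblast markers, all higher in pubertal goats, beside 3.51% of all genes, and the adjusted threshold by 0. Nothing is read from the single astrocyte and endothelial markers. Of 6 pituitary markers tested 3 passed the unadjusted threshold, all higher in pubertal goats, beside 3.51% of all genes, and 0 the adjusted one. Their sum was 87.2, 151 and 482 FPKM in the pubertal goats against 28.5 to 51.1 FPKM in the prepubertal goats. Of 6 choroid plexus and ependymal markers 0 passed the unadjusted threshold. Their sum was 70.4, 64.3 and 378 FPKM in the pubertal goats against 77.9 to 115 FPKM in the prepubertal goats. Pubertal replicate 3 alone was high for the choroid plexus markers, while the other pubertal goats lay below all prepubertal ones, and it also had the highest pituitary sum. Of 4 forebrain markers tested 0 passed the unadjusted threshold, and they summed to 2.14 to 3.27 against 1.67 to 2.52 FPKM.

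**Figure D5:**
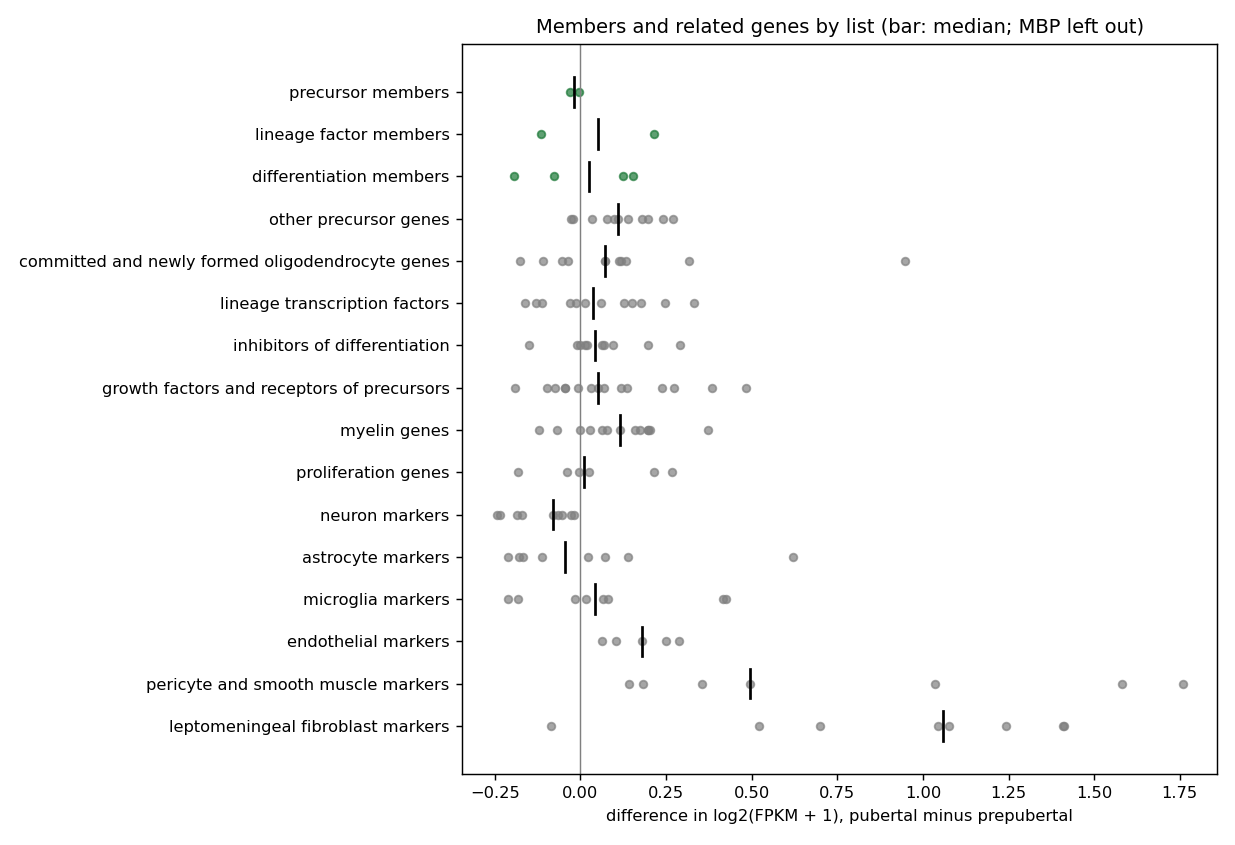
Difference between the stages for each tested gene on the log2(FPKM + 1) scale (horizontal axis, pubertal minus prepubertal), by list, with the 8 matched genes in green, other genes in grey and the median of a list as a black bar. MBP is left out. Genes of the oligodendrocyte lineage lie around 0 apart from BMP4 at 0.95, while most leptomeningeal fibroblast markers lie to the right, with a median of 1.06.

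The genes whose course over the 6 libraries was most like the mean standardized course of the 8 genes were sought among 14073 genes with a mean of at least 1 FPKM. They were TNFRSF21, a death receptor, with a root mean square distance of 0.106 standard deviations over the 6 libraries, ZNF511 with 0.173 and ADAMTS4, a protease of proteoglycans, with 0.190. Their distances are small because they were picked as the closest of many genes, and a link to the 8 genes was not tested. TNFRSF21 was at 26.2, 27.8 and 29.3 FPKM in the pubertal goats, against 29.2, 24.9 and 28.0 FPKM in the prepubertal goats. The lowest library was prepubertal replicate 2, which was also the lowest for 3 of the 8 genes. The 8 genes did not all follow the mean course. BCAS1 and PDGFRA were highest in pubertal replicate 1, where the mean course, standardized again, stood at -0.67.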

How the data were processed

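Hypothalamus RNA of 3 pubertal and 3 prepubertal goats was sequenced, and groups were taken from the sample titles. Reads were aligned with TopHat and assembled with Scripture and Cufflinks by the authors. The submitters' processing notes name Cufflinks 2.1.1 and Cuffdiff 2.1.1, and the genome build is not given in the sources used here. The deposited tables of mRNAs and lncRNAs give FPKM for each transcript in each library, scaled by the authors for length and mapped fragments. The deposited values are FPKM and not read counts, so the number of reads behind a value was not used here and no counting interval is given. The authors' group means, fold changes, p-values and q-values hold their own comparison and were not used. Transcript lengths, gene identifiers and lncRNA sequences were taken as deposited.

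FPKM was summed by gene. Symbols were looked up in a RefSeq table (assembly ARS1.2, used for names only), which held 19083 of the 20225 genes (94.4%). The stages were compared with limma 3.58.1 under R 4.3.3, by lmFit and then eBayes with a mean-variance trend, on log2(FPKM + 1). Tests were two-sided, over genes with a mean of at least 0.1 FPKM, with Benjamini-Hochberg adjustment over all genes tested and a threshold of 0.05. Differences on this scale understate those of low genes. Transcripts and lncRNAs were fitted likewise in their own tables. The fit was tested on simulated data with 200 changed genes among 16397. It recovered 78% of them at a log2 change of 1 and 95.5% at 2, and called 8 and 9 unchanged genes. Smaller changes were not simulated, so recovery of differences as small as those of the 8 matched genes was not tested. Python 3.11.15 was used for other steps.

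Alternatives were a pseudocount of 0.1, a minimum mean of 1 FPKM or none, quantile normalization, median centring, rescaling without the transcript that held 21.4% to 52.7% of the summed FPKM, no trend, the replicate number as a block, only the most abundant transcript of each gene, the fibroblast markers as a covariate, and each library left out in turn. Those on transcripts and lncRNAs were added after the data were seen. The members and lists were chosen with earlier results of these data known. Genes were named by a rule: the members, in each related list the genes past an unadjusted p-value of 0.05 whose stages did not overlap or otherwise the 3 most abundant, summed levels of marker lists, and the 3 genes with the most similar course. PCDH15, TNR, BMP4, HDAC1, PDGFA, FGF2, the single markers and the lncRNAs near NKX2-2 were named after their values were seen.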

Additional observations from a re-analysis of the deposited data

How the results depend on the processing

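No member passed the adjusted threshold under any of the 16 alternatives. The directions of small differences were not stable. On the log2 scale, PDGFRA was at 0.049 with quantile normalization and 0.044 after rescaling without the dominant transcript, CSPG4 at 0.0022 after that rescaling, and with the fibroblast markers as a covariate NKX2-2 was at 0.052, GPR17 at 0.00081 and MYRF at -0.082. With each library left out in turn, PDGFRA ran from -0.054 to 0.052, CSPG4 from -0.14 to 0.14, NKX2-2 from -0.30 to 0.0057, GPR17 from -0.26 to 0.18, BCAS1 from -0.077 to 0.33 and ENPP6 from -0.42 to 0.031. SOX10, from 0.084 to 0.29, and MYRF, from 0.025 to 0.30, kept their sign, as did XLOC_562033, from -0.54 to -0.31. The balance ran from -0.26 to 0.13. The causes were not tested.

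Past the unadjusted threshold of 0.05 in limma, the number of members went from 0 to between 0 and 1 (MYRF without pubertal replicate 1, and ENPP6 without prepubertal replicate 2), that of their transcripts to between 0 and 2 (without pubertal replicate 2), and that of the lncRNAs near NKX2-2 to between 0 and 2 (XLOC_525986 and XLOC_525979 without pubertal replicate 3, and XLOC_562033 without prepubertal replicate 3). Over all genes, 846 passed the unadjusted threshold and 575 of these were higher, with between 500 (without prepubertal replicate 1) and 2220 (without pubertal replicate 1) when a library was left out, and between 336 and 981 higher. The count at an adjusted p-value under 0.05 was 0, and between 0 and 4 with a library left out, the highest without pubertal replicate 2.

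With the replicate number as a block the adjusted count over all genes was 1. The deviations of same-numbered libraries had correlations of -0.025, -0.10 and 0.075, and those of differently numbered libraries ran from -0.12 to 0.16. No sign of pairing by number was seen, but 3 libraries a stage are too few to decide it. The block changed no call for the members. Precision by read depth could not be assessed from FPKM.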
